A study of Mus musculus with 16 samples.

Results

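Expression of 9 genes of matrix breakdown was followed in mouse retina after optic nerve injury. They were 5 matrix metalloproteases (Mmp12, Mmp9, Mmp2, Mmp14 and Mmp15), the related protease Adamts1, and 3 tissue inhibitors of metalloproteases (Timp1, Timp2 and Timp3). The 9 were taken by name from the 36528 gene identifiers listed for each library. All 9 passed the filter on low counts and were among the 19391 genes tested.

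Matrix metalloproteases are zinc-dependent enzymes that cut collagens, laminins, proteoglycans and other proteins outside the cell, and most are made as inactive precursors. Some are secreted and others are anchored in the cell membrane. ADAMTS enzymes are secreted relatives that cut proteoglycans such as aggrecan and versican. TIMPs bind the active site of metalloproteases and block it. In nervous tissue these enzymes and inhibitors are studied for their part in matrix remodelling, inflammation and neuron survival after injury.

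The study measured polyadenylated RNA of 16 mouse retinas by RNA-seq at day 3 of optic nerve crush. The crush injures the axons of retinal ganglion cells behind the eye. Mice received either the vehicle (MCT) or GNE-3511, an inhibitor of DLK (dual leucine zipper kinase), a stress kinase of injured neurons that acts upstream of JNK and c-Jun. The inhibitor was given at 75 mg/kg, 60 and 68 h after the injury. The comparisons addressed what the crush changed, and whether the inhibitor altered it.

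The 4 groups were uncrushed retinas of vehicle mice (n = 3), crushed retinas of vehicle mice (n = 3), uncrushed retinas of inhibitor mice (n = 5) and crushed retinas of inhibitor mice (n = 5). The inhibitor groups are called DLKi below. According to the labels each drug was given to 5 mice; strain, genotype and age are not stated there. With 5 DLKi mice, the 5 crushed and 5 uncrushed DLKi retinas would be both eyes of the same mice. The labels do not say which retinas belong together. The sample numbers in the titles run in consecutive crushed and uncrushed couples within each drug, but the labels do not say that these are the 2 eyes of a mouse. The main tests therefore treat the libraries as unpaired, and a fit with the couples as a block is given in the last section. P-values reflect only the spread between libraries, which may in part be technical. Every sample is bulk RNA of a retina, so fewer cells of a type and less RNA per cell cannot be told apart.

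Libraries held between 22.35 M and 44.75 M counted reads. Retinal markers were present in all 16, with the summed level of 8 Müller glia markers between 964 and 1417 nRPKM. The unit nRPKM is the authors' read count per gene length and sequencing depth, scaled between libraries, and it allows levels of different genes to be compared. Of 10 ganglion cell markers, 8 fell after crush with vehicle and 8 with DLKi. Of 8 astrocyte and gliosis markers, 5 rose in each. Uncrushed vehicle replicate 1 stood apart from its group. It was the shallowest library, its ganglion cell markers summed to 188 nRPKM against 274 and 292 in replicates 2 and 3, and its pigment epithelium markers summed to 341 against 115 and 52.8. Lens markers also varied widely, from 0.941 to 210 nRPKM in uncrushed vehicle, 0.720 to 15.5 in crushed vehicle, 10.9 to 471 in uncrushed DLKi and 2.08 to 18.1 in crushed DLKi retinas. The part of these tissues in the results below was not tested, except where values without the library are given.

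Crush changed 4 of the 9 genes in at least 1 of the drug groups. Mmp12 RNA, nearly absent from uncrushed retina, rose 52.7-fold with vehicle and 50.7-fold with DLKi. Adamts1 rose 1.98-fold with vehicle and 1.96-fold with DLKi. Timp1 rose 3.02-fold with DLKi, and its 2.27-fold change with vehicle was not called (edgeR adjusted p = 0.174). Mmp9 fell to 0.562 of its uncrushed level with vehicle and to 0.513 with DLKi. Mmp2, Mmp14, Mmp15, Timp2 and Timp3 did not pass the test in either drug group. A gene was called at an adjusted p of 0.05 or less in edgeR's quasi-likelihood test, with Benjamini-Hochberg adjustment over all 19391 genes. With vehicle, 3 of the 9 genes were called (2 higher, 1 lower), where 2.63% of all genes tested were called, 1.77% higher and 0.861% lower. Over all genes that was 343 higher and 167 lower, and it became 248 and 258 without uncrushed vehicle replicate 1 and 196 and 83 without replicate 2. With DLKi, 4 of the 9 were called (3 higher, 1 lower), against 5.33% of all genes, 3.29% higher and 2.04% lower. The median log2 change of the 9 was 0.24 with vehicle and 0.15 with DLKi, beside medians of -0.003 and -0.001 over all genes. The 9 were chosen with earlier results of these data known, so setting them beside all genes is a description only.

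The 250 bases in front of a start site of each of the 3 genes that rose are shown, since these genes moved in the same direction after crush. For Mmp12 only the window that held a match is shown. They are RefSeq sequences of GRCm38.p6, written 5′ to 3′ on the gene's strand, and the last base of each lies just before the start. Capitals mark the match to an AP-1 element (TGANTCA), the kind of site bound by dimers containing c-Jun.
Mmp12, chr9:7347124-7347373, plus strand: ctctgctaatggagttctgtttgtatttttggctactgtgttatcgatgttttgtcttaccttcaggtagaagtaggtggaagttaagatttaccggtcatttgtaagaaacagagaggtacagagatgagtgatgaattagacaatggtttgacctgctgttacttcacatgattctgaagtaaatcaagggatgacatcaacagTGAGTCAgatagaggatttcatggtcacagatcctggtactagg
Adamts1, chr16:85803114-85803363, minus strand: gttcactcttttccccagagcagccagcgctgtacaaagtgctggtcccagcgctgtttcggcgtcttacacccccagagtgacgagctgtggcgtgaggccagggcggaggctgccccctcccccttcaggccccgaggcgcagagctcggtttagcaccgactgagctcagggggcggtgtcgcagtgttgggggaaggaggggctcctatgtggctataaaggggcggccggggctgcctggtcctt
Timp1, chrX:20869916-20870165, plus strand: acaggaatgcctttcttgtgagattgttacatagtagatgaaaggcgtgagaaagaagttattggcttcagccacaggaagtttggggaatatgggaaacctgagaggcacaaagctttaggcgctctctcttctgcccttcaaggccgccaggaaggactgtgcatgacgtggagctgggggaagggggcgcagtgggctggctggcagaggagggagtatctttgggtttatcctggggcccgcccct
Both strands were searched for AP-1, for the cyclic AMP response element TGACGTCA and for the STAT element TTCNNNGAA. RefSeq windows were matched for 7 of the 9 genes, 8 windows in all, since Mmp12 has 2 starts. The only match in the 8 was TGAGTCA in the Mmp12 window above, with its first base at position -44 from the start. The other Mmp12 window, chr9:7344147-7344396, lies just before the first base of the gene. It held none of the 3 motifs, nor did those of Mmp14, Mmp15, Timp2 and Timp3. Of 32851 such windows in the genome, 6.75% held the AP-1 letters, 1.55% the cyclic AMP element and 7.02% the STAT element. With shares of this size, a single match among 8 windows searched for 3 motifs is not unusual. A match describes the letters only, and no match says nothing about a factor.

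Mmp12 (macrophage metalloelastase), a secreted enzyme that cuts elastin and is made mainly by macrophage-lineage cells, had the largest change of the 9. Its level was 0.136, 0.131 and 0.0599 nRPKM in the uncrushed vehicle retinas and 5.98, 4.91 and 6.11 nRPKM in the crushed vehicle retinas. With DLKi it was 0.0837, 0.0323, 0.0785, 0.0823 and 0.0952 nRPKM in uncrushed and 4.05, 4.55, 3.04, 3.67 and 3.28 nRPKM in crushed retinas. Every crushed retina lay far above every uncrushed one. The uncrushed values rest on 6 to 22 reads a library, the crushed ones on 429 to 776. The log2 change after crush was 5.72 ± 0.26 (SE) with vehicle, 52.7-fold (edgeR adjusted p = 2.67e-10). With DLKi it was 5.66 ± 0.20, or 50.7-fold (edgeR adjusted p = 6.09e-12).

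Mmp12 lies in a cluster of 10 metalloprotease genes on chromosome 9 (GRCm38), from Mmp13, which starts at 7272514, to Mmp7, which ends at 7699585. Mmp12 itself spans chr9:7344397-7360461 on the plus strand. Its neighbours were close to silent. Only Mmp3 besides Mmp12 passed the filter, and Mmp1a and Mmp20 had no read in any of the 16 libraries. Mmp3 (stromelysin 1), which cuts proteoglycans and activates other metalloproteases, had 0 to 2 reads in each uncrushed retina, 6 to 48 in the crushed vehicle and 1 to 26 in the crushed DLKi retinas. It did not pass edgeR's test with vehicle (log2 change 4.79 ± 1.33 SE, edgeR adjusted p = 0.0693) or with DLKi (3.71 ± 1.08, edgeR adjusted p = 0.0558). Its adjusted p ran from 0.00116 to 0.518 and from 0.00132 to 0.183 over other settings, and DESeq2 called it higher in both.

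The crush effect on Mmp12 sat beside changes in markers of immune cells. Summed over 12 microglia markers, the level was 40.9 to 43.2 nRPKM in uncrushed vehicle, 62.3 to 77.0 in crushed vehicle, 33.0 to 47.8 in uncrushed DLKi and 50.2 to 91.8 nRPKM in crushed DLKi retinas. Of the 12, 6 rose with vehicle and 11 with DLKi by edgeR, and 8 and 12 by DESeq2, at 3 libraries a group against 5. For the difference of the crush effects 0 of the 12 were called by edgeR or DESeq2, with 1 under an unadjusted p of 0.05. Infiltrating myeloid markers stayed low in all groups, between 0.875 and 2.83 nRPKM summed over 10 genes, and none of the 8 tested was called after crush with either drug, by edgeR or DESeq2, with 0 at an unadjusted p under 0.05. Of the 8, 5 had a positive change after crush with vehicle (median log2 change 0.177) and 7 with DLKi (median 0.313). The monocyte gene Ly6c2, not among the 8 tested, averaged at most 0.0138 nRPKM in any group. Neutrophil markers summed to 0.226 to 1.35 nRPKM. Within groups, the deviations of Mmp12 from its group mean had a correlation of 0.33 with those of the microglia sum over the 16 libraries, and of 0.31 without the 2 farthest. With the pigment epithelium sum it was 0.57 (0.36 without the 2 farthest), with the mural cell sum 0.38 (0.35) and with the infiltrating myeloid sum 0.28 (0.365). It was 0.35 (0.21) with neutrophil, 0.35 (0.02) with lens and 0.32 (0.215) with astrocyte and gliosis markers. With ganglion cell, Müller glia, fibroblast and endothelium markers it was -0.23, -0.18, -0.03 and 0.03. In uncrushed retina the Mmp12 deviations rest on only 6 to 22 reads a library. The part of these cell types in the result was not tested.

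Mmp9 (gelatinase B; chr2:164940326-164955850, plus strand), a secreted enzyme that cuts gelatin and type IV collagen and is best known from neutrophils and activated glia, fell after crush. Its level was 4.45, 6.75 and 6.87 nRPKM in uncrushed vehicle and 3.75, 3.93 and 2.48 nRPKM in crushed vehicle retinas. In the DLKi mice it measured 8.38, 7.68, 8.59, 8.75 and 6.52 nRPKM in uncrushed and 3.95, 3.78, 4.63, 4.04 and 4.05 nRPKM in crushed retinas. Crushed and uncrushed retinas did not overlap with either drug, though the lowest uncrushed vehicle retina (4.45 nRPKM) came close to the highest crushed one (3.93 nRPKM). The log2 change was -0.83 ± 0.17 (SE) with vehicle (edgeR adjusted p = 0.00893) and -0.96 ± 0.13 with DLKi (edgeR adjusted p = 0.000136). With vehicle the value was -0.75 without uncrushed vehicle replicate 2 (edgeR adjusted p = 0.0559), -0.73 without replicate 3 (0.058) and -0.83 with only the vehicle groups fitted (0.13), each short of the threshold, in a range of 5.37e-05 to 0.13 over all settings.

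The retina-wide level of Mmp9 moved closely with ganglion cell markers. The marker sums were 188, 274 and 292 nRPKM in uncrushed vehicle, 143, 176 and 111 in crushed vehicle, 345, 295, 348, 340 and 272 in uncrushed DLKi, and 176, 194, 186, 163 and 167 nRPKM in crushed DLKi retinas. Library by library the deviations from the group means correlated at 0.90 with those of Mmp9 over 16 libraries, and at 0.78 without the 2 farthest. The correlation with Müller glia markers was 0.85, and 0.65 without the 2 farthest. Such correlations were not particular to Mmp9. Timp2 had 0.765 with the ganglion cell sum (0.548 without the 2 farthest) and 0.848 with the Müller glia sum (0.740). Mmp15 had 0.728 (0.502) and 0.776 (0.675). Over all 16 libraries the genes most like Mmp9 were Gng4 (r = 0.990), Chrna6 (r = 0.986), a nicotinic receptor subunit of ganglion cells that belongs to the marker list, and Lgi3 (r = 0.986). Uncrushed vehicle replicate 1, with the lowest marker sum of the uncrushed retinas, also had the lowest Mmp9. These points share library composition and depth, and the part of ganglion cell RNA in the Mmp9 result was not tested.

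**Figure D1:**
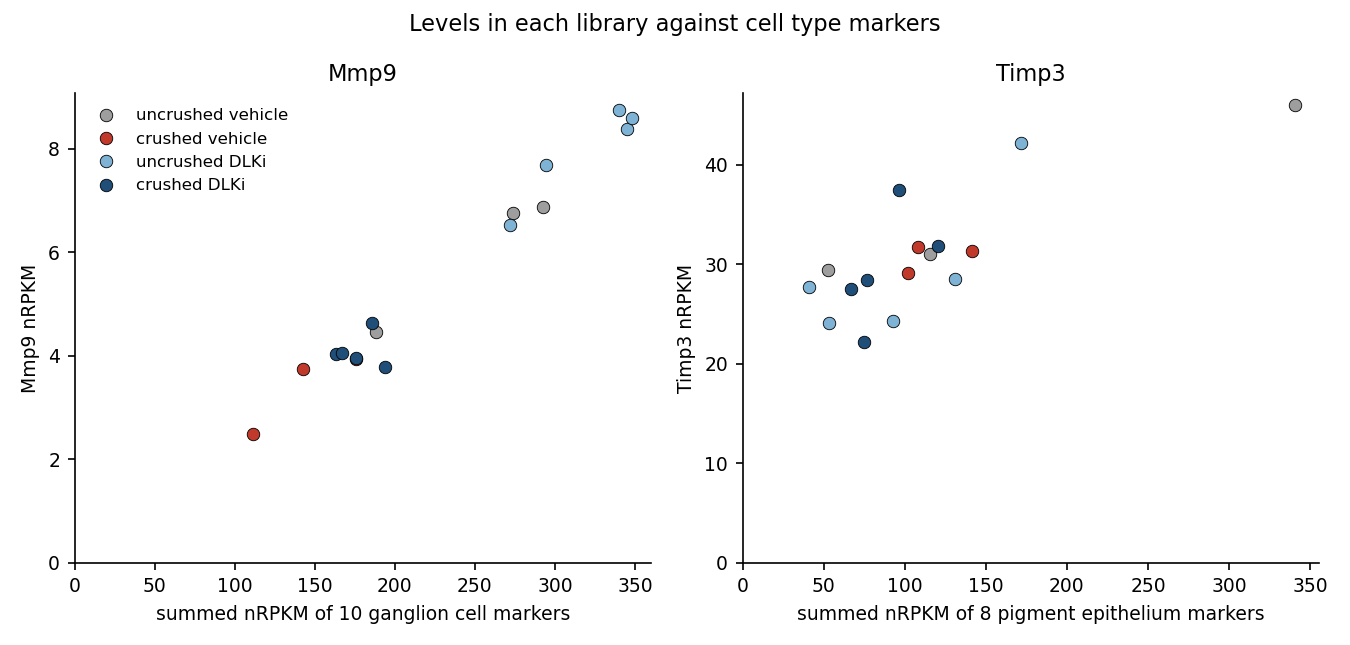
Mmp9 level (left, nRPKM) against the summed nRPKM of 10 ganglion cell markers, and Timp3 level (right, nRPKM) against the summed nRPKM of 8 pigment epithelium markers, with 1 point per retina library coloured by group. The crushed retinas sit at the lower left for Mmp9, where uncrushed vehicle replicate 1 (4.45 nRPKM at a marker sum of 188) lies among them. The highest Timp3 value (46.0 nRPKM) belongs to the library with the highest pigment epithelium sum (341 nRPKM).

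Adamts1 (chr16:85793827-85803113, minus strand), a secreted protease that cuts versican and aggrecan and can restrain new vessel growth, rose in crushed retina with both drugs. Its level was 4.28, 6.49 and 6.47 nRPKM in uncrushed vehicle and 13.8, 10.02 and 10.4 nRPKM in crushed vehicle retinas. The DLKi retinas held 4.44, 4.72, 4.75, 3.96 and 4.22 nRPKM in uncrushed and 8.28, 10.2, 8.08, 8.51 and 8.25 nRPKM in crushed retinas. The crushed and uncrushed retinas did not overlap. The log2 change was 0.98 ± 0.14 (SE) with vehicle, 1.98-fold (edgeR adjusted p = 0.00062), and 0.97 ± 0.11 with DLKi, 1.96-fold (edgeR adjusted p = 3.155e-05). Within groups its deviations followed endothelial markers at 0.80 over 16 libraries, and at 0.72 without the 2 farthest. Such a correlation was not particular to Adamts1. Timp2 had 0.76 (0.71 without the 2 farthest), Mmp14 0.51 (0.36), Mmp15 0.49 (0.32) and Mmp9 0.42 (0.22). Mmp12, Timp1, Timp3 and Mmp2 had 0.03, -0.01, -0.02 and -0.34 with the same endothelial markers. Those markers were not called after crush with either drug, 0 of 8 by edgeR and DESeq2, with 0 of 8 under an unadjusted p of 0.05 with vehicle and 1 with DLKi, and summed to 48.6 to 65.5 nRPKM in uncrushed and 54.5 to 76.1 nRPKM in crushed vehicle retinas.

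Mmp2 (gelatinase A; chr8:92827290-92853421, plus strand), a secreted gelatin and collagen IV protease, was at 3.48, 3.20 and 2.71 nRPKM in uncrushed vehicle and 3.45, 3.83 and 3.77 in crushed vehicle retinas. Under DLKi the level was 2.96, 3.25, 3.02, 2.93 and 3.46 nRPKM in uncrushed and 3.24, 3.23, 3.06, 3.31 and 3.18 in crushed retinas. The ranges overlapped with both drugs. The log2 change after crush was 0.24 ± 0.10 (SE; edgeR adjusted p = 0.316) with vehicle and 0.04 ± 0.07 with DLKi (edgeR adjusted p = 0.902).

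Mmp14 (MT1-MMP; chr14:54431598-54442456, plus strand), the membrane-anchored enzyme that activates pro-Mmp2 together with Timp2, was at 3.14, 3.85 and 4.51 nRPKM in uncrushed and 5.35, 4.48 and 4.86 in crushed vehicle retinas. The inhibitor groups gave 4.79, 4.26, 3.98, 3.54 and 4.54 nRPKM in uncrushed and 4.87, 5.38, 4.50, 5.32 and 4.83 in crushed retinas. The upper uncrushed values reached into the crushed range in both. The log2 change was 0.35 ± 0.13 (SE; edgeR adjusted p = 0.249) with vehicle and 0.24 ± 0.10 with DLKi (edgeR adjusted p = 0.229).

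Mmp15 (MT2-MMP; chr8:95352296-95374293, plus strand), another membrane-anchored enzyme, was at 2.72, 4.37 and 4.47 nRPKM in uncrushed and 3.70, 3.50 and 2.96 nRPKM in crushed vehicle retinas. With DLKi it was 4.56, 4.21, 4.16, 3.94 and 3.38 nRPKM in uncrushed and 3.39, 2.88, 3.70, 3.37 and 3.08 nRPKM in crushed retinas. The groups overlapped. The log2 change was -0.19 ± 0.15 (SE; edgeR adjusted p = 0.841) with vehicle and -0.30 ± 0.12 with DLKi (edgeR adjusted p = 0.207). The DLKi value passed the test without uncrushed vehicle replicate 1 (edgeR adjusted p = 0.0468) and also without the 2 shallowest vehicle libraries, uncrushed replicate 1 and crushed replicate 3 (0.0327), in a range of 0.0136 to 0.423 over all settings. Those libraries enter this comparison only through the shared estimate of the spread, the scaling and the filter.

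Timp1, a small secreted inhibitor that is strongly induced in reactive glia in many injuries, was the lowest of the 3 inhibitors. It was at 0.950, 0.717 and 0.716 nRPKM in uncrushed vehicle and 1.402, 2.29 and 1.60 nRPKM in crushed vehicle retinas. In the DLKi mice it measured 0.664, 0.468, 0.225, 0.419 and 0.757 nRPKM in uncrushed and 2.62, 1.72, 1.11, 1.30 and 0.814 nRPKM in crushed retinas. The groups did not overlap with either drug, and the crushed DLKi retinas spread widely, from 0.814 to 2.62 nRPKM. The log2 change was 1.60 ± 0.32 (SE) with DLKi, 3.02-fold (edgeR adjusted p = 0.00475). With vehicle it was 1.18 ± 0.40, 2.27-fold (95% interval 0.34 to 2.02), and did not pass the test (edgeR adjusted p = 0.174, in a range of 0.0461 to 0.52 over all settings). Its counts were 9 to 90 reads a library. Within groups Timp1 followed the microglia sum at 0.70 (0.48 without the 2 farthest) and the fibroblast sum at 0.72 (0.57 without the 2 farthest), over 16 libraries. Of 6 fibroblast markers all had a positive change after crush with DLKi (median log2 change 0.46, 3 under an unadjusted p of 0.05, 1, Col3a1, called by edgeR and by DESeq2), and 4 with vehicle (median 0.32, 0 under an unadjusted p of 0.05, 0 called by edgeR and by DESeq2). Their part was not tested.

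Timp2 (chr11:118301061-118355411, minus strand), a broad secreted inhibitor that also takes part in pro-Mmp2 activation, was at 21.5, 30.3 and 30.7 nRPKM in uncrushed and 34.2, 32.04 and 25.6 nRPKM in crushed vehicle retinas. The DLKi retinas held 34.1, 29.3, 28.2, 28.8 and 26.4 nRPKM in uncrushed and 33.5, 35.0, 32.9, 34.4 and 27.3 nRPKM in crushed retinas. The ranges overlapped with both drugs. Its log2 change was 0.16 ± 0.13 (SE; 95% interval -0.13 to 0.44; edgeR adjusted p = 0.866) with vehicle and 0.15 ± 0.10 (edgeR adjusted p = 0.615) with DLKi. Without uncrushed vehicle replicate 1 the vehicle value was 0.01 ± 0.12 (edgeR adjusted p = 0.999, in a range of 0.19 to 1.0).

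Timp3, the matrix-bound inhibitor whose mutation causes the human macular disease Sorsby fundus dystrophy, is made in quantity by the pigment epithelium behind the retina. It was at 46.0, 31.0 and 29.5 nRPKM in uncrushed and 29.2, 31.7 and 31.3 nRPKM in crushed vehicle retinas. Under DLKi the level was 42.2, 24.1, 24.3, 28.5 and 27.8 nRPKM in uncrushed and 37.5, 31.8, 28.4, 27.5 and 22.2 nRPKM in crushed retinas. The groups overlapped. The log2 change was -0.20 ± 0.21 (SE; edgeR adjusted p = 0.913) with vehicle and 0.01 ± 0.16 (edgeR adjusted p = 0.993) with DLKi. Without uncrushed vehicle replicate 1 the vehicle value was 0.03 ± 0.21, of the opposite sign (edgeR adjusted p = 0.995, in a range of 0.502 to 1.0).

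The Timp3 spread moved with the sums of several marker lists, among them pigment epithelium. The pigment epithelium sum was 341, 115 and 52.8 nRPKM in uncrushed vehicle, 102, 108 and 141.5 in crushed vehicle, 172, 53.5, 93.0, 131 and 40.8 in uncrushed DLKi, and 96.3, 120, 76.7, 66.7 and 74.8 nRPKM in crushed DLKi retinas. None of the 8 markers was called after crush with either drug by edgeR or DESeq2, with 0 of 8 at an unadjusted p under 0.05, although all 8 had a negative change in each. Within groups Timp3 followed the sum at 0.71 over 16 libraries and 0.62 without the 2 farthest. It followed the microglia sum at 0.70 (0.54 without the 2 farthest) and the mural cell sum at 0.59 (0.515). The genes most like it were C1qtnf5 and Mfrp (r = 0.933 each, from the same locus) and Sfrp1 (r = 0.922). Pigment epithelium carried along with the retina was not tested as a source.

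Timp1 and Timp3 lie inside synapsin genes, on the opposite strand. Timp1 lies within Syn1 (chrX:20870166-20874737, GRCm38), with 0% of its exon bases overlapping Syn1 exons, and Timp3 in Syn3 (chr10:86300412-86349505), with 21.3% of its exon bases overlapped. The libraries do not mark the strand, so reads in the overlapping part cannot be assigned to 1 gene. Syn3 averaged 2.29 nRPKM, low against Timp3. The crush changes of Syn1 and Syn3 differed little from 0. Syn1 had 0.04 ± 0.18 (SE) with vehicle and -0.12 ± 0.14 with DLKi (log2; edgeR adjusted p = 0.990 and 0.835), and Syn3 had 0.08 ± 0.13 and 0.11 ± 0.10 (edgeR adjusted p = 0.965 and 0.760). Timp4, the remaining inhibitor, lies in Syn2 and had 4 to 40 reads a library. Its level averaged 0.328, 0.386, 0.221 and 0.383 nRPKM in uncrushed vehicle, crushed vehicle, uncrushed DLKi and crushed DLKi retinas. Its log2 change was 0.23 ± 0.47 (SE; edgeR adjusted p = 0.974) and 0.81 ± 0.37 (edgeR adjusted p = 0.316). For Syn2 it was -0.24 ± 0.18 with vehicle and -0.32 ± 0.14 with DLKi (edgeR adjusted p = 0.818 and 0.266).

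**Figure D2:**
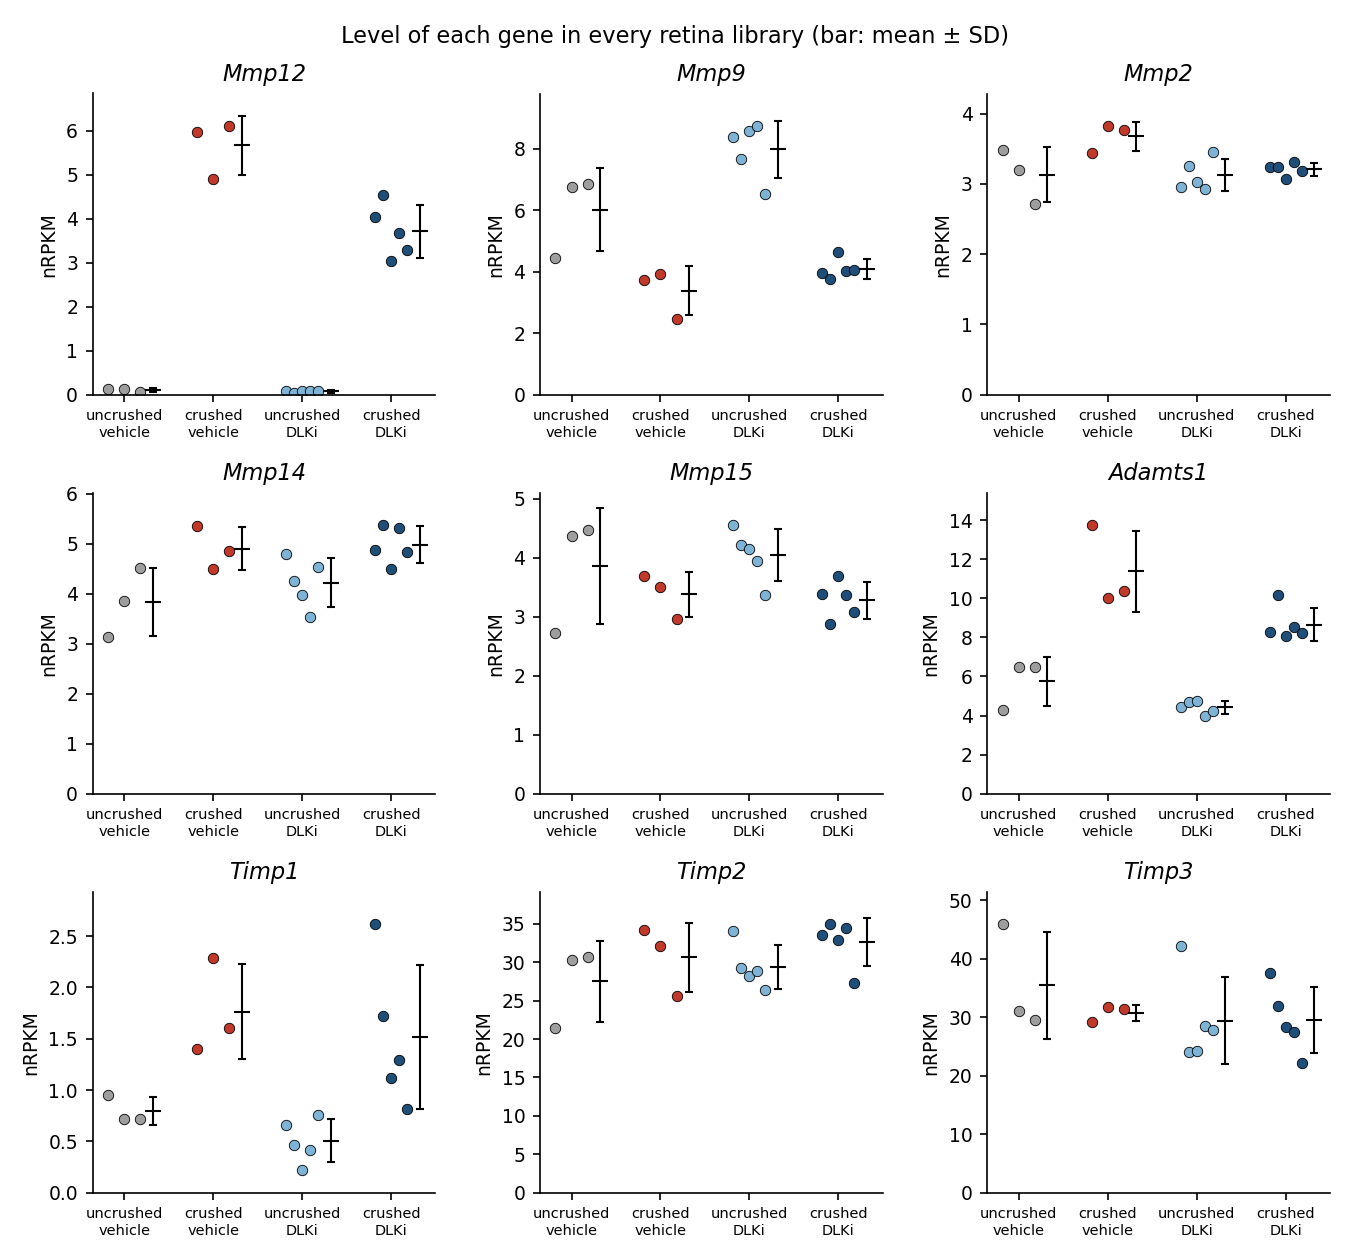
Level of each of the 9 genes (nRPKM, each axis from 0) in the 16 retina libraries, 1 point per library, with the mean and SD of each group beside it. Mmp12 lies at or under 0.136 nRPKM in every uncrushed retina and at or above 3.04 in every crushed one, and Timp2 and Timp3 overlap between all groups.

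The inhibitor called none of the 9 genes by edgeR in the planned comparisons. In crushed retina 0 of 9 were called, where 0.505% of all genes tested were called, with 3 of the 9 under an unadjusted p of 0.05 and 1, Mmp12, called by DESeq2. In uncrushed retina 0 of 9 were called, against 0.629% of all genes, with 2 under an unadjusted p of 0.05 and 0 called by DESeq2. Each group enters both a crush and a drug comparison, so these comparisons share samples.

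For Mmp12, all 5 crushed DLKi retinas (3.04 to 4.55 nRPKM) lay below all 3 crushed vehicle retinas (4.91 to 6.11 nRPKM). Its log2 change was -0.61 ± 0.16 (SE; 95% interval -0.94 to -0.28; edgeR adjusted p = 0.095), a fold of 0.657, and missed the threshold. DESeq2 gave an adjusted p of 0.00634, and the range over all settings was 0.00634 to 0.381. In uncrushed retina, where levels are far lower, the log2 change of Mmp12 was -0.55 ± 0.34 (edgeR adjusted p = 0.418).

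Adamts1 had a log2 change of -0.40 ± 0.13 (SE; edgeR adjusted p = 0.18) in crushed and -0.39 ± 0.13 (edgeR adjusted p = 0.161) in uncrushed retina. In uncrushed retina the DLKi values (3.96 to 4.75 nRPKM) overlapped only the lowest vehicle value (4.28 nRPKM), that of replicate 1. In crushed retina the highest DLKi value, 10.2 nRPKM, overlapped the lowest vehicle value, 10.02. Without uncrushed vehicle replicate 1, the change in uncrushed retina was -0.55 ± 0.11 (edgeR adjusted p = 0.0807, in a range of 0.0761 to 0.362).

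Mmp9 had a log2 change of 0.27 ± 0.15 (SE; edgeR adjusted p = 0.455) in crushed and 0.40 ± 0.15 (edgeR adjusted p = 0.194) in uncrushed retina. In the latter the value was 0.23 ± 0.14 without uncrushed vehicle replicate 1 (edgeR adjusted p = 0.63, in a range of 0.0997 to 0.63). Of 10 ganglion cell markers 3, Pou4f1, Pou4f2 and Isl2, were called higher with DLKi in crushed retina, and all 10 had a positive change there. Mmp2 in crushed retina was lower in all 5 DLKi than in all 3 vehicle libraries, by a small amount (log2 change -0.20 ± 0.08 SE; edgeR adjusted p = 0.308). Groups this small can separate by chance, here and for Mmp12, and the share of all genes that do was not counted. For Mmp14, Mmp15, Timp1, Timp2 and Timp3 the drug changes in crushed retina were 0.02 ± 0.11, -0.05 ± 0.14, -0.23 ± 0.33, 0.09 ± 0.12 and -0.06 ± 0.19 (log2, SE).

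**Figure D3:**
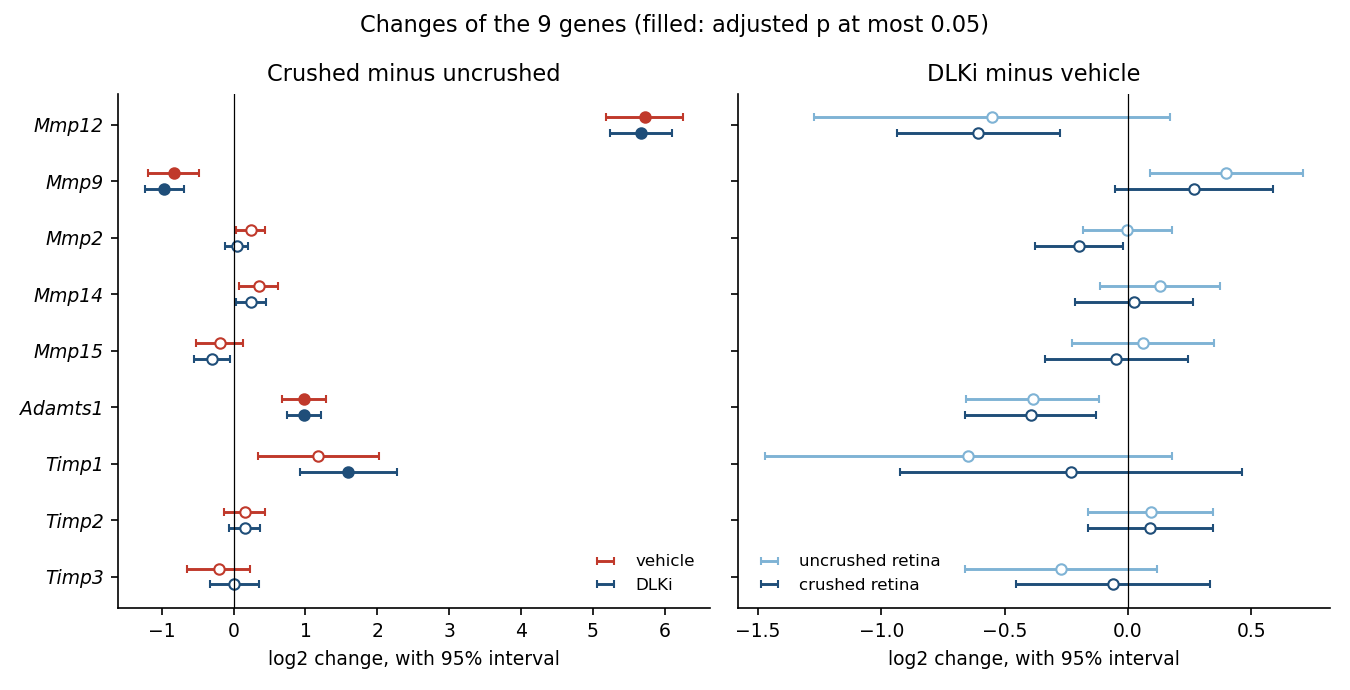
Log2 change of each gene with its 95% interval, for crushed minus uncrushed retina with each drug (left) and for DLKi minus vehicle in each kind of retina (right), where filled points passed the edgeR threshold. Filled points appear only in the left panel, for Mmp12, Mmp9 and Adamts1 with both drugs and for Timp1 with DLKi.

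Whether the crush effect itself differed between the drugs was tested directly. None of the 9 was called (0.0103% of all genes were), 0 had an unadjusted p under 0.05, and DESeq2 called 0. For Mmp12 the difference of the crush effects (DLKi minus vehicle) was -0.05 ± 0.42 (log2, SE), with a 95% interval from -0.94 to 0.83 (edgeR adjusted p = 0.9998). Adamts1 gave -0.01 ± 0.18 (interval -0.39 to 0.38), Mmp9 -0.13 ± 0.21 (interval -0.58 to 0.31) and Timp1 0.42 ± 0.51 (interval -0.66 to 1.49). The intervals for Mmp12 and Timp1 are wide, so a difference of moderate size between the drugs was not detectable at this depth and number of libraries.

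When each effect was averaged over the other factor, in 2 comparisons added after the data were seen, 5 of the 9 genes were called after crush (4 higher, 1 lower), against 8.45% of all genes, 5.22% higher and 3.23% lower. Mmp12 (5.69 ± 0.17, log2, SE), Adamts1 (0.98 ± 0.09), Timp1 (1.39 ± 0.26) and Mmp14 (0.30 ± 0.08; edgeR adjusted p = 0.0283) rose, and Mmp9 (-0.90 ± 0.11) fell. The Mmp14 call depends on single libraries. It was lost without uncrushed vehicle replicate 1 or 2, crushed vehicle replicate 1 or 3, uncrushed DLKi replicate 3 or 4, or crushed DLKi replicate 2 or 4 (edgeR adjusted p from 0.0509 to 0.103), in a range of 0.00912 to 0.108 over all settings. Mmp15 (-0.25 ± 0.10; edgeR adjusted p = 0.163) was called lower without uncrushed vehicle replicate 1 (edgeR adjusted p = 0.00637, range 0.00637 to 0.383).

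Averaged over both kinds of retina, the inhibitor called 1 of the 9, lower, against 9.17% of all genes, 4.51% higher and 4.66% lower. Adamts1 was lower with DLKi (-0.39 ± 0.09, log2, SE; edgeR adjusted p = 0.0146), and the call was lost without uncrushed vehicle replicate 2 (edgeR adjusted p = 0.0502, range 0.0013 to 0.0502). Mmp12 (-0.58 ± 0.19; edgeR adjusted p = 0.0641) and Mmp9 (0.33 ± 0.11; edgeR adjusted p = 0.0577) missed the threshold and were called by DESeq2 and without any of uncrushed vehicle replicate 3, crushed vehicle replicate 2 or uncrushed DLKi replicate 5. Their ranges were 0.0135 to 0.25 for Mmp12 and 0.02 to 0.26 for Mmp9. If the retinas are both eyes of the same mice, this average counts each mouse as separate libraries. Where the eyes of a mouse are alike, its SE and adjusted p would then be too small. The fit with the couples as a block gives no drug effect, so this was not tested.

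Compared per length, the inhibitors Timp3 and Timp2 stood at the top of the order in every group, at mean levels of 27.5 to 35.5 nRPKM, and overlapped each other. In uncrushed vehicle retina Mmp9 (6.02 ± 1.36 nRPKM, SD), Adamts1 (5.75 ± 1.27), Mmp15 (3.86 ± 0.982), Mmp14 (3.83 ± 0.687) and Mmp2 (3.13 ± 0.391) followed, each overlapping the next. Timp1 and then Mmp12 came last, clear of their neighbours. In crushed vehicle retina the order was Adamts1 (11.4 ± 2.07 nRPKM, SD), Mmp12 (5.66 ± 0.661), Mmp14 (4.90 ± 0.435), Mmp2 (3.68 ± 0.205), Mmp15 (3.39 ± 0.383), Mmp9 (3.39 ± 0.788) and Timp1 (1.77 ± 0.466). Mmp12 and Mmp14 overlapped there, as did Mmp2, Mmp15 and Mmp9. Mmp12 thus moved from place 9 to place 4 with vehicle, and from 9 to 6 with DLKi (3.72 ± 0.602 nRPKM, SD, n = 5), where it overlapped Mmp9 and Mmp15. In uncrushed DLKi retina Mmp9 (7.98 ± 0.917 nRPKM) was above Adamts1 (4.42 ± 0.337) with no overlap.

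**Figure D4:**
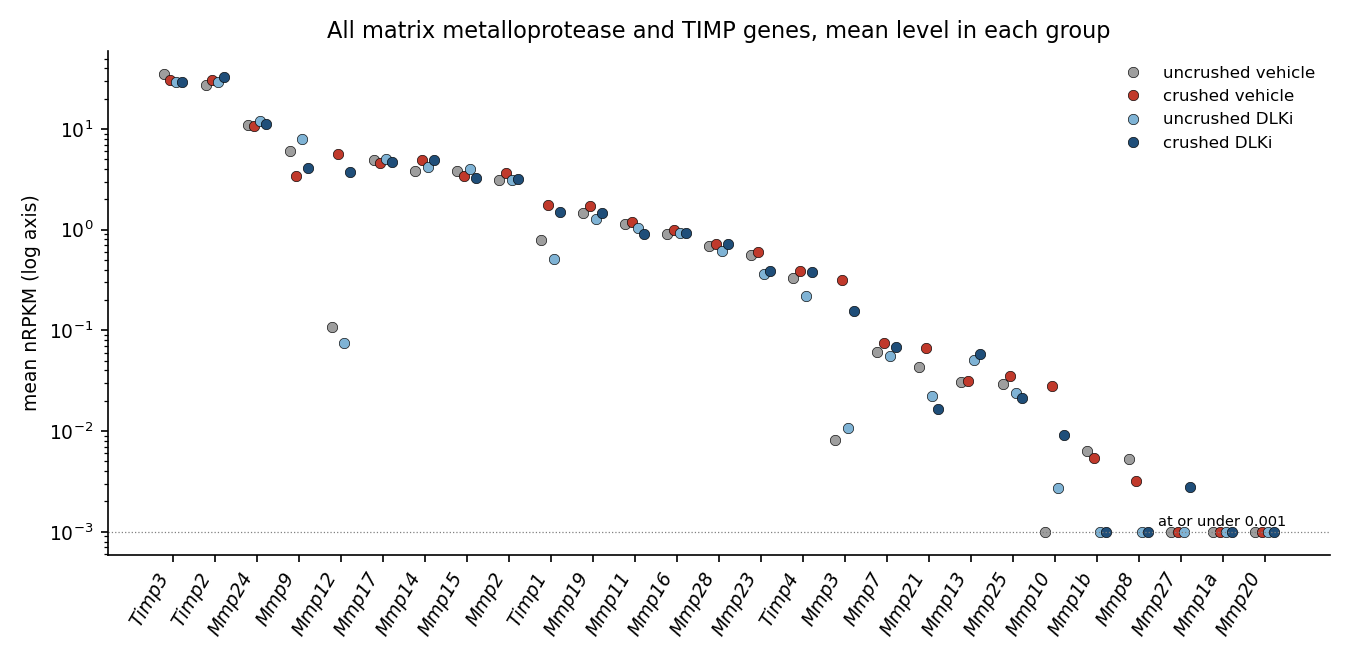
Mean nRPKM in each group (log axis) for the matrix metalloprotease genes and the 4 Timp genes, ordered by their highest group mean, with means at or under 0.001 drawn at that line. Timp3 and Timp2 lead, Mmp24 follows at 10.6 to 11.9 nRPKM, and Mmp12 and Mmp3 have uncrushed means far below their crushed means.

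Genes whose levels most resembled each member's over the 16 libraries were listed by Pearson's r of log2 CPM (counts scaled to library size), as a description. For Mmp12 they were Sprr1a (r = 0.991), Avil (r = 0.989) and Hrk (r = 0.989), all known as genes induced in injured neurons or their axons. Within groups these 3 had weaker correlations with Mmp12, of 0.48, 0.69 and 0.23. For Adamts1 they were Slc6a8 (0.968), Mafk (0.965) and Klhl29 (0.953), and for Timp1 Cmtm3 (0.966), C4a (0.952) and Serping1 (0.942). Timp2 was most like Tgfb2 (0.930), Plpp3 (0.929) and Ddr1 (0.927), Mmp14 like S1pr3 (0.924), and Mmp15 like Adgrb2 (0.917). The closest gene to Mmp2, Lair1, reached 0.848. The libraries share the 4 group means, so a high r can come from the group means alone.

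Other genes of the protease system mostly did not pass the test. Of 18 other metalloproteases 8 were tested and 0 called after crush with either drug by edgeR, 1 of 8 having an unadjusted p under 0.05 in each, and DESeq2 called 1, Mmp3, in each. Of 16 other ADAMTS genes tested, 0 were called by edgeR and DESeq2, with 0 under an unadjusted p of 0.05, in both. The highest of the other metalloproteases per length, Mmp24 and Mmp17, membrane-anchored enzymes of nervous tissue, averaged 10.6 to 11.9 and 4.65 to 5.07 nRPKM over the groups.

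Among ADAM proteases, membrane proteins that shed or hold other surface proteins, 0 of 11 were called with vehicle by edgeR (2 under an unadjusted p of 0.05, 1 by DESeq2) and 3 were lower with DLKi. These were Adam11 (-0.45 ± 0.09, log2, SE; edgeR adjusted p = 0.00561), Adam22 (-0.28 ± 0.07; 0.0195) and Adam23 (-0.40 ± 0.05; 8.95e-05), catalytically inactive members found on neurons. With vehicle, at 3 libraries a group against 5, the same genes also had negative changes. They were -0.33 ± 0.12 (edgeR adjusted p = 0.208), -0.12 ± 0.09 (0.81) and -0.22 ± 0.07 (0.107), and the gene called by DESeq2 was Adam23. The Adam22 call was lost without uncrushed DLKi replicate 4 or 5 or crushed DLKi replicate 1 (edgeR adjusted p = 0.0546, 0.0507 and 0.069, range 0.000357 to 0.069).

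Of 6 other protease inhibitors tested, 0 were called with vehicle by edgeR (3 under an unadjusted p of 0.05, 1 by DESeq2) and 3 rose with DLKi. They were the serine protease inhibitor Serpina3n (1.77 ± 0.36, log2, SE; edgeR adjusted p = 0.00521), the broad inhibitor A2m (1.17 ± 0.26; 0.00905) and the complement inhibitor Serping1 (0.93 ± 0.25; 0.0394). With vehicle the same genes had 1.69 ± 0.47, 0.70 ± 0.33 and 0.81 ± 0.33. The Serping1 call was lost with only the DLKi groups fitted and without uncrushed vehicle replicate 2, uncrushed DLKi replicate 2, 3 or 4, or crushed DLKi replicate 1, 2 or 4 (edgeR adjusted p from 0.0508 to 0.128, range 0.00259 to 0.128). Of 6 plasminogen activation genes tested, Plat, which encodes tissue plasminogen activator, rose with vehicle (0.74 ± 0.14; edgeR adjusted p = 0.00551) and with DLKi (0.54 ± 0.11; 0.00492).

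Among 27 matrix and cell surface substrates, 2 rose and 1 fell with vehicle, and 2 rose and 3 fell with DLKi. Spp1 (osteopontin) rose by a log2 change of 1.03 ± 0.12 (SE; edgeR adjusted p = 8.25e-05) with vehicle and 0.76 ± 0.09 (5.505e-05) with DLKi. Cd44, the hyaluronan receptor, rose by 1.14 ± 0.24 (edgeR adjusted p = 0.0139) and 1.13 ± 0.19 (0.00101). Hapln1, the link protein that ties hyaluronan to proteoglycans, fell with vehicle (-2.08 ± 0.29; edgeR adjusted p = 0.000326) and with DLKi (-2.10 ± 0.22; 1.15e-05). With DLKi the proteoglycan Bcan (-0.56 ± 0.11; edgeR adjusted p = 0.00341) and the laminin chain Lamb1 (-0.47 ± 0.10; 0.00946) also fell. With vehicle Bcan had -0.52 ± 0.14 (edgeR adjusted p = 0.0569, range 0.00762 to 0.288; called by DESeq2) and Lamb1 -0.36 ± 0.13 (edgeR adjusted p = 0.256, range 0.0275 to 0.59). The Cd44 call with vehicle was lost without uncrushed vehicle replicate 1 or 3 or crushed vehicle replicate 1 (edgeR adjusted p = 0.0534, 0.0542 and 0.0945, range 0.00016 to 0.101).

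The inhibitor called 0 genes by edgeR in each of these 6 lists, in crushed and in uncrushed retina. In crushed retina the numbers under an unadjusted p of 0.05 were 2 of 8 other metalloproteases, 4 of 16 other ADAMTS genes, 1 of 11 ADAM genes, 0 of 6 inhibitors, 2 of 6 plasminogen activation genes and 1 of 27 substrates. In uncrushed retina they were 1, 1, 1, 0, 2 and 2 in the same order. DESeq2 called 1 gene in each kind of retina, the proteoglycan Agrn lower in crushed and Spp1 higher in uncrushed retina.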

How the data were processed

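RNA was made into poly(A) libraries with the TruSeq RNA kit version 2 (a kit that does not mark strand), 0.5 µg of total RNA each, and read as single reads of 50 bases, per the labels' protocols. The authors' deposited counts are whole numbers of uniquely aligned reads per gene model, per the file headers. The authors' deposited RPKM (nRPKM) is, per the file headers, RPKM scaled by a size factor. GSNAP and GRCm38 are named in the submitters' processing notes; its version was not given in the sources used here.

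Entrez identifiers were matched to symbols for 31049 of 36528, and unmatched ones held 1.10 to 1.22% of counts. Counts were fitted with edgeR 4.0.16 (R 4.3.3; TMM, filterByExpr, quasi-likelihood F test, two-sided) as 4 group means over 16 libraries, with 12 residual degrees of freedom. Contrasts were crush with each drug, DLKi in each kind of retina, and the difference. Replicate pairs differed by more than sampling noise. Alternatives were DESeq2 1.42.0, other scalings and filters, only the groups compared, and omission of each library or of the 2 shallowest vehicle libraries, and, added later, a replicate block. Code was tested on simulated data. Promoters and loci are from RefSeq (GRCm38.p6), exon overlaps from GENCODE M21.

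Members and gene lists were chosen with earlier results of these data known. Named genes are the 9, up to 4 called genes per protease list and contrast, Timp4 and 3 synapsins, the most abundant markers, and the 3 genes most like each member; Lamb1, Ly6c2 and the 3 ganglion cell genes called with DLKi were named after their values were seen. Sums of the mural cell (7 genes) and fibroblast (6) markers ran from 25.3 to 37.9 and 3.10 to 10.5 nRPKM.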

Additional observations from a re-analysis of the deposited data

Results flagged for a closer look

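Among the 18 sets of 5 DLKi libraries that could be examined (9 genes in 2 groups), 4 held a library far from the others, where chance alone flags about 1 in 20. Mmp12 in uncrushed DLKi replicate 2 was at 0.0323 nRPKM, from 6 reads, against 0.0785 to 0.0952 in the other libraries. Adamts1 in crushed DLKi replicate 2 was at 10.16 nRPKM against 8.08 to 8.51. Timp2 in crushed DLKi replicate 5 was at 27.3 nRPKM against 32.9 to 35.0. Timp3 in uncrushed DLKi replicate 1 was at 42.24 nRPKM against 24.1 to 28.5, and that library also had the highest pigment epithelium sum of its group, 172 nRPKM; its part in the value was not tested. Groups of 3 were not examined this way.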

How the results depend on the processing

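No called change of the 9 genes reversed under any alternative run. Of 1458 values recomputed, 1420 kept their side of the threshold. These also kept their direction, or changed sign without being called and moved by at most 1 SE of the main value. The members called by the inhibitor in crushed retina went from 0 to 1 with DESeq2, and those of the averaged inhibitor effect from 1 to 3 with DESeq2 and to between 0 and 3 without single libraries; fewer samples enter the latter, and otherwise the cause was not tested. Over all genes, calls for DLKi in crushed retina were 98, against 411 with DESeq2, 45 with only the groups compared, 53 without the 2 shallowest vehicle libraries and 22 to 144 without single libraries. For DLKi in uncrushed retina they were 122, against 623, 3, 11 and 17 to 205. For crush with vehicle they were 510, against 281 with only the groups compared and 276 to 506 without single libraries. For the difference they were 2, against 5 with DESeq2 and 1 to 2 without single libraries. For the averaged inhibitor effect they were 1778, against 607 without the 2 shallowest vehicle libraries and 678 to 2541 without single libraries. Scaling by total counts only moved the higher share of calls for DLKi in uncrushed retina from 41.8% to 24.2%, and for the averaged inhibitor effect from 49.2% to 31.6%. The labels carry no replicate numbers, but the sample numbers in the titles run in 8 consecutive crushed and uncrushed couples, and a fit with these as a replicate block was added after the data were seen. Deviations from the group means correlated within the couples at 0.045 to 0.438, over 0.1 in 7 of 8, and in 7 of 8 both libraries correlated best with each other among those of the other kind of retina with the same drug, a hint from the data and not from the design. The block has 6 residual degrees of freedom and gives no drug effect, which lies between couples. With it 4 of the 9 were called after crush with vehicle, 5 with DLKi, 7 on average and 0 for the difference, and no call of the 9 was lost. Timp1 with vehicle (1.16 ± 0.32, log2, SE; edgeR adjusted p = 0.0461), Mmp15 with DLKi (-0.30 ± 0.07; 0.0136) and, on average, Mmp15 (-0.24 ± 0.06; 0.0134) and Timp2 (0.16 ± 0.04; 0.0144) became called, as did Mmp3 with each drug (0.00116 and 0.00132); Mmp9 with vehicle kept its call (-0.83 ± 0.09; 5.37e-05). Among the other genes, Adam11, Adam23, A2m, Serpina3n, Bcan and Lamb1 also became called with vehicle (edgeR adjusted p = 0.0136, 0.0231, 0.0266, 0.000123, 0.00762 and 0.0275). The aggrecan gene Acan became called with DLKi (0.027), and Syn2 with DLKi (0.000455) and on average (0.000261). Over all genes the block called 1234 with vehicle, 2080 with DLKi (1034 without it), 2818 on average (1639) and 3 for the difference. Reads a library were 6 to 22 for Mmp12 in uncrushed retina, 9 to 90 for Timp1 and 0 to 48 for Mmp3.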
